A study of Homo sapiens with 6 samples.

Results

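The genes described here encode the proteins of cell-cell junctions: cadherins, desmosomal cadherins and their plaque proteins, catenins, claudins, tight junction scaffolds and connexins. They were taken by gene symbol, as families (CDH, CLDN, DSG, DSC, PKP, TJP, GJA and GJB with a number) and as the single genes OCLN, DSP, JUP, PPL, EVPL, CTNNA1, CTNND1, CGN and MARVELD2. The rule found 57 of the 11963 genes measured, on 83 of the 19065 probe sets that carry 1 gene symbol. CTNND1, CGN and MARVELD2 had no probe set with a single symbol and were not analysed here. A gene with several probe sets was represented by the one with the highest mean signal over all arrays.

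The study compared E1, a metastatic colon cancer cell line that the labels call derived in vivo, with HCT116, a human colon cancer line described as poorly metastatic, on 3 Affymetrix arrays each. No treatment is given for either line, and the cell line label of E1 also reads HCT116. The labels do not say what host, site or selection gave E1, whether it is a clone, or whether separate cultures lie behind the 3 arrays of a line. Every p-value is thus set against the spread among arrays, possibly a technical one. In cultures measured in bulk, fewer cells with a transcript and less transcript per cell cannot be told apart.

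Values are linear probe set intensities. Differences are E1 minus HCT116 on the scale of log2(intensity + 32), which understates the change of dim genes. Called genes are those with an adjusted p under 0.05 (Benjamini-Hochberg) in the limma fit over all 11963 genes. Levels of different genes are not compared, since each probe set has its own response.

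The E1 arrays fell into unlike sets by their control probe sets. The signal ratio of the 3' to the 5' control probe set of GAPDH was 0.803 on E1 array 1 but 34.1 and 71.9 on E1 arrays 2 and 3, against 0.774 to 0.811 on the HCT116 arrays. For ACTB it was 1.12 on E1 array 1 and 46.1 and 89.9 on E1 arrays 2 and 3, against 0.930 to 1.00 on the HCT116 arrays. The counts of junction genes, and the differences of the 20 described in full, are therefore also given for E1 array 1 alone and for E1 arrays 2 and 3 alone, both against the 3 HCT116 arrays. A test with E1 array 1 alone assumes that it varies as the HCT116 arrays do. In a test with E1 arrays 2 and 3 alone, the line and the high ratio cannot be told apart. A gene said to rise or fall there is described for these arrays only. Of 9 colon epithelium markers 0 were called and 2, KRT8 and KRT18, were lower at an unadjusted p under 0.05. Of all genes 0.418% were called, and 9.70% were lower at that unadjusted p. EPCAM read 1691 to 3428 on the E1 arrays and 1885 to 2009 on the HCT116 arrays, whereas the intestinal factor CDX2 read 4.53 to 8.20 in E1 and 4.85 to 22.5 in HCT116, and villin, VIL1, 2.18 to 18.7 in E1 and 3.99 to 16.4 in HCT116. Keratin 18, KRT18, a keratin of simple epithelium, read 6285, 5677 and 5792 on E1 arrays 1, 2 and 3, against 8466, 7509 and 7565 on HCT116 arrays 1, 2 and 3, a difference of -0.40. Its partner KRT8 read 2862, 372 and 103 on E1 arrays 1, 2 and 3, against 4693, 3169 and 4352 on HCT116 arrays 1, 2 and 3, with E1 arrays 2 and 3 far below all others, at -2.91 (SE 1.03, adjusted p = 0.284). KRT19 and KRT20 stood at -0.80 and 0.50. The signals of CDX2 and VIL1 were low in both lines. Of 4 leukocyte markers measured, 0 had an unadjusted p under 0.05, against 15.0% of all genes. Their summed intensity was 93.5 to 114 in E1 and 104 to 167 in HCT116.

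Epithelial cells are held together by adherens junctions, in which cadherins bind between cells and catenins tie them to actin, and by desmosomes, in which desmogleins and desmocollins are tied to keratin filaments through plakoglobin, plakophilins and desmoplakin. Tight junctions, built of claudins and occludin on ZO scaffold proteins, seal the space between cells, and gap junctions of connexins let small molecules pass. In colon epithelium E-cadherin is the main adherens junction cadherin, and its loss is a known route by which carcinoma cells leave the tissue. The repressors SNAI and ZEB bind the E-box CAGGTG in promoters of such genes.

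None of the 57 junction genes was called between E1 and HCT116 in the limma fit over all genes, where 0.418% of all genes were called. The smallest adjusted p among them was 0.263. At an unadjusted p under 0.05 there were 3 higher genes, against 5.29% of all genes, and 4 lower ones, against 9.70% of all genes. Together these 7 are 12.3% of the junction genes, against 15.0% of all genes, so the share lies near the background. The 3 higher genes were PKP4, CLDN15 and CDH11 and the 4 lower ones PKP3, CLDN7, JUP and GJB5. The arrays of the lines did not overlap for 8 of the 57 genes, against 18.8% of all genes. The median difference over the 57 genes was -0.046, with 23 genes positive and 34 negative, against -0.0055 over all genes. Subtracting array medians moved the median of all genes to 0.144 and that of the junction genes to 0.104.

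**Figure D1:**
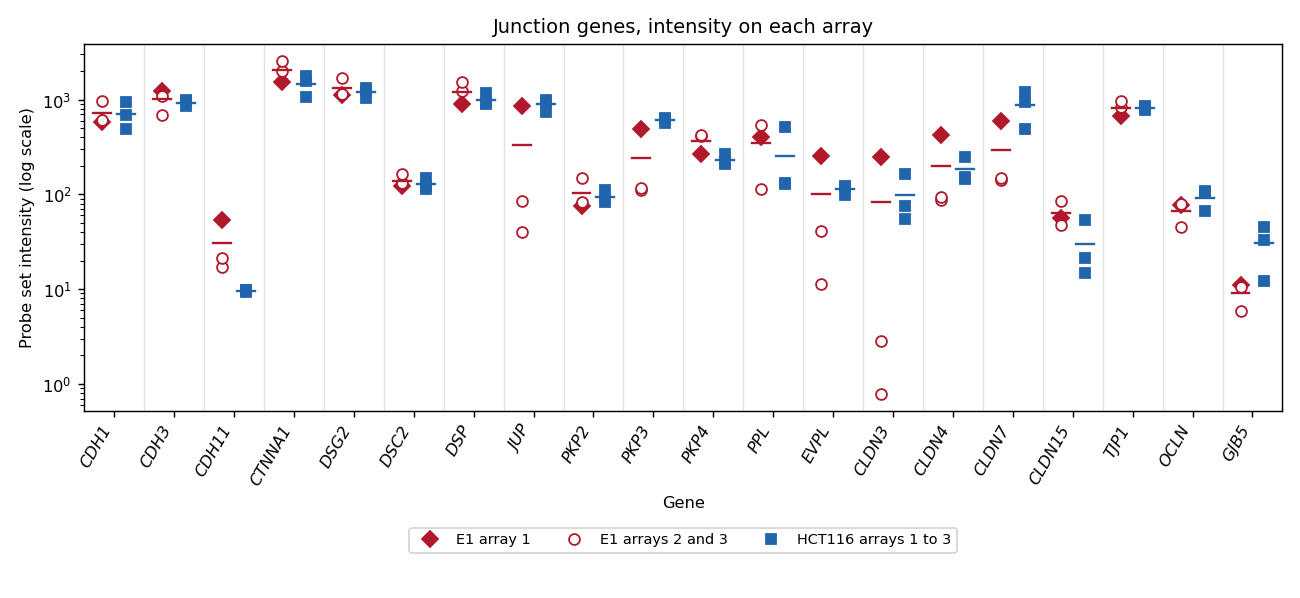
Intensity (log axis) of the 20 junction genes described one by one, with E1 left and HCT116 right for each gene; filled diamonds are E1 array 1, open circles E1 arrays 2 and 3, squares the HCT116 arrays, and bars the means of 3 arrays. For JUP, PKP3, EVPL, CLDN3, CLDN4 and CLDN7 the open circles lie below all other arrays, whereas CDH1, CDH3, CTNNA1, DSG2 and DSP overlap between the lines.

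Promoter windows of 4 junction genes are shown because they are the members' windows with at least 2 copies of the E-box. In addition, JUP and CLDN7 were among the lower genes over all arrays while DSP and DSG2 were not. With E1 array 1 alone JUP, CLDN7, DSP and DSG2 stood at -0.034, -0.46, -0.13 and -0.11, so that contrast rests largely on E1 arrays 2 and 3. These windows hold the 250 bases before the annotated start, from RefSeq on GRCh38.p14, in the gene's direction. The E-box CAGGTG is in capitals and reads CACCTG where it lies on the opposite strand. The windows are at chr17:7262479-7262728 on the minus strand, chr17:41785977-41786226 on the minus strand, chr6:7541421-7541670 on the plus strand and chr18:31497927-31498176 on the plus strand.
CLDN7: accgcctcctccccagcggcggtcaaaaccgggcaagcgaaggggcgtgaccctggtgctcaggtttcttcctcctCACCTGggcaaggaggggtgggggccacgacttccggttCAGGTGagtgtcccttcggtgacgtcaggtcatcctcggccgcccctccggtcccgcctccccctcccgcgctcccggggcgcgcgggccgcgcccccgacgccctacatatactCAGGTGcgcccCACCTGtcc
JUP: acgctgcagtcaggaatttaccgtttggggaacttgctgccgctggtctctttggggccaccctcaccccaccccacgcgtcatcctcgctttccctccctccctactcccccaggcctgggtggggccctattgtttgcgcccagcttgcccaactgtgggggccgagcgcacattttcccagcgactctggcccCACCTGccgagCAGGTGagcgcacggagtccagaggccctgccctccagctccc
DSP: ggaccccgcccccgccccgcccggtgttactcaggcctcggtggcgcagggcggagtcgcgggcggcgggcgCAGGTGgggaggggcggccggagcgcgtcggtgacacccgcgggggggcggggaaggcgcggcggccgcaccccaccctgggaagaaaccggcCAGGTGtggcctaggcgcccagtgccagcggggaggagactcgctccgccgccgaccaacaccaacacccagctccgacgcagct
DSG2: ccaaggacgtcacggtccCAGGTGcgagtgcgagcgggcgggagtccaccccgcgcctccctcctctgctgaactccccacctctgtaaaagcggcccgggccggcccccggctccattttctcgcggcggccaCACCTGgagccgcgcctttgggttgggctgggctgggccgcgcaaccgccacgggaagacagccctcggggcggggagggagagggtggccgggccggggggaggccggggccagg
Counted from 1 at the 5' end of the window, the motif begins at 77, 116, 231 and 242 in CLDN7, at 197 and 208 in JUP, at 73 and 166 in DSP and at 19 and 135 in DSG2. CLDN7 and JUP each have 2 annotated windows, and the other window of each gene held none. Over all 35116 windows of this length 17.5% held the motif, and 13 of the 65 windows found for 39 of the junction genes did. The remaining junction genes, CDH1 and PKP3 among them, had no window here, so their promoters were not searched. At least 2 copies were present in 2.53% of all windows and in the 4 shown. A match describes the letters of the window and not a bound site.

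On their brightest probe sets, the classical cadherins of the epithelial adherens junction overlapped between the lines, whereas a dimmer CDH1 probe set, given further on, was lower on every E1 array. E-cadherin, CDH1, read 584, 606 and 959 on E1 arrays 1, 2 and 3, against 692, 938 and 486 on HCT116 arrays 1, 2 and 3. E1 array 3 was the highest and HCT116 array 3 the lowest, the ranges lay across each other, and the difference was 0.033 (SE 0.29, adjusted p = 0.980). Its 95% confidence interval of -0.67 to 0.73 leaves room for a change of either sign, and with E1 array 1 alone and E1 arrays 2 and 3 alone it stood at -0.21 and 0.16. P-cadherin, CDH3, read 1245, 695 and 1086 on E1 arrays 1, 2 and 3, against 987, 958 and 849 on HCT116 arrays 1, 2 and 3. E1 array 2 was the lowest and E1 array 1 the highest of all arrays, with a difference of 0.075 (SE 0.23, adjusted p = 0.931) and an interval of -0.48 to 0.63. With E1 array 1 alone it stood at 0.41, and with E1 arrays 2 and 3 alone at -0.093. N-cadherin, CDH2, the cadherin of neural and mesenchymal cells, read 13.4, 24.3 and 58.7 on E1 arrays 1, 2 and 3, against 32.6, 44.2 and 19.8 on HCT116 arrays 1, 2 and 3. Its signal was low in both lines and overlapped, at -0.047 (SE 0.29, adjusted p = 0.970). M-cadherin of muscle, CDH15, read 41.4 to 123.8 in E1 and 60.3 to 89.3 in HCT116, and was not called at -0.11.

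Alpha-E-catenin, CTNNA1, which links the cadherin-catenin complex to actin, was the 1 alpha-catenin among the 57 genes. It read 1547, 2009 and 2580.1 on E1 arrays 1, 2 and 3, against 1557, 1775 and 1055 on HCT116 arrays 1, 2 and 3. E1 array 3 was highest and HCT116 array 3 lowest, E1 array 1 lay within the HCT116 range, and the difference was 0.48 (SE 0.26, adjusted p = 0.453), with an interval of -0.16 to 1.11. It stood at 0.11 with E1 array 1 alone and at 0.66 (SE 0.26, adjusted p = 0.191) with E1 arrays 2 and 3 alone.

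Among the type II cadherins, CDH11, a cadherin of mesenchymal cells and osteoblasts, read 53.2, 17.1 and 21.4 on E1 arrays 1, 2 and 3, against 9.80, 9.41 and 9.80 on HCT116 arrays 1, 2 and 3. All E1 arrays lay above all HCT116 arrays and E1 array 1 was the highest, although every signal was low. The difference of 0.54 (SE 0.23, adjusted p = 0.333) did not pass, and its unadjusted p lay just under 0.05. E1 array 1 alone stood 1.03 above HCT116, and E1 arrays 2 and 3 alone at 0.30 (SE 0.13, adjusted p = 0.242). The second CDH11 probe set read 27.3, 2.22 and 27.1 on E1 arrays 1, 2 and 3, against 5.83, 10.7 and 23.9 on HCT116 arrays 1, 2 and 3, overlapping between the lines at 0.14. Of 7 fibroblast markers 0 had an unadjusted p under 0.05, against 15.0% of all genes. Their summed intensity was 289 to 426 on the E1 arrays and 362 to 415 on the HCT116 arrays. The fibroblast proteoglycan lumican, LUM, was at 0.335 to 2.96 in E1 and 0.158 to 0.492 in HCT116.

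The other 11 type II cadherins, CDH5 to CDH10, CDH12, CDH18 to CDH20 and CDH22, read between 1.10 and 74.6 on any array. Their differences ran from -0.21 to 0.43, with no unadjusted p below 0.107. Endothelial VE-cadherin, CDH5, was at 1.97 to 2.71 in E1 and 1.56 to 3.25 in HCT116. Of 5 endothelial markers, 1 was higher at an unadjusted p under 0.05, VWF, at 0.36, against 5.29% of all genes. Their summed intensity was 97.9 to 134 in E1 and 91.2 to 123 in HCT116. The CDH6, CDH7 and CDH12 arrays did not overlap between the lines, at 0.43, 0.10 and 0.21, with E1 higher and all at low signal. The other 4 CDH6 probe sets overlapped between the lines, at -0.077, -0.011, 0.12 and -0.030. Kidney cadherin, CDH16, and LI-cadherin of the intestine, CDH17, read 1.90 to 41.4, and the highest of these values was that of CDH17 on E1 array 2.

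On their brightest probe sets, the desmosomal cadherins of simple epithelium overlapped between the lines, whereas a dimmer DSC2 probe set, given further on, was lower on every E1 array. Desmoglein 2, DSG2, read 1113, 1146 and 1698 on E1 arrays 1, 2 and 3, against 1051, 1323 and 1242 on HCT116 arrays 1, 2 and 3. E1 array 3 was the highest and the remaining arrays overlapped, with a difference of 0.11 (SE 0.20, adjusted p = 0.874) and an interval of -0.38 to 0.60. It stood at -0.11 with E1 array 1 alone and at 0.21 with E1 arrays 2 and 3 alone. Desmocollin 2, DSC2, read 122, 130.4 and 165 on E1 arrays 1, 2 and 3, against 122, 115 and 150.2 on HCT116 arrays 1, 2 and 3. The lines overlapped again, at 0.084 (SE 0.16, adjusted p = 0.877) over all arrays, -0.063 with E1 array 1 alone and 0.16 with E1 arrays 2 and 3 alone. Desmocollin 3, DSC3, a desmocollin of stratified epithelium, read 40.1, 8.61 and 35.4 on E1 arrays 1, 2 and 3, against 43.2, 53.2 and 51.3 on HCT116 arrays 1, 2 and 3. All E1 arrays were lower, at -0.48 (SE 0.24, adjusted p = 0.410), with E1 array 2 far below the rest, and at -0.17 with E1 array 1 alone and -0.63 with E1 arrays 2 and 3 alone. On the second DSC3 probe set the lines overlapped, at -0.31 over all arrays and 0.098 with E1 array 1 alone. DSC1, DSG1 and DSG3, also of stratified epithelium, read 1.55 to 38.5 and were not called.

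The desmosomal plaque held the member with the smallest p, PKP3. Plakophilin 3, PKP3, which binds desmosomal cadherins and desmoplakin in simple and stratified epithelium, read 490.4, 111 and 116 on E1 arrays 1, 2 and 3, against 619, 637 and 569 on HCT116 arrays 1, 2 and 3. Every E1 array was below every HCT116 array, with E1 arrays 2 and 3 far below E1 array 1, and the difference was -1.52 (SE 0.49, adjusted p = 0.263). E1 array 1 alone differed from HCT116 by -0.29 and E1 arrays 2 and 3 alone by -2.13 (SE 0.14, adjusted p = 0.00136).

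Plakoglobin, JUP, shared by desmosomes and adherens junctions, read 863, 85.2 and 40.4 on E1 arrays 1, 2 and 3, against 932, 993 and 746 on HCT116 arrays 1, 2 and 3. E1 array 1 lay within the HCT116 range and E1 arrays 2 and 3 lay far below it. The means were 329 ± 462 in E1 and 890.3 ± 129 in HCT116 (SD, n = 3 each), and the difference was -2.22 (SE 0.88, adjusted p = 0.318). With E1 array 1 alone it was -0.034, and with E1 arrays 2 and 3 alone -3.31 (SE 0.25, adjusted p = 0.00227).

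Plakophilin 4, PKP4, a plakophilin relative found at adherens junctions and desmosomes, read 267, 413 and 425 on E1 arrays 1, 2 and 3, against 221, 212 and 264 on HCT116 arrays 1, 2 and 3. A dimmer PKP4 probe set, given further on, was lower on every E1 array. On the brightest probe set all E1 arrays were above all HCT116 arrays, the lowest of them E1 array 1 by a small margin. The difference was 0.58 (SE 0.21, adjusted p = 0.284), at 0.18 with E1 array 1 alone and 0.78 (SE 0.15, adjusted p = 0.0347) with E1 arrays 2 and 3 alone. Desmoplakin, DSP, the link from the plaque to keratin, read 903, 1219 and 1519 on E1 arrays 1, 2 and 3, against 1168, 930.1 and 899 on HCT116 arrays 1, 2 and 3. The lines overlapped, at 0.25 (SE 0.22, adjusted p = 0.661), with an interval of -0.28 to 0.78, and stood at -0.13 with E1 array 1 alone and 0.44 (SE 0.19, adjusted p = 0.217) with E1 arrays 2 and 3 alone. Plakophilin 2, PKP2, read 75.9, 83.5 and 151 on E1 arrays 1, 2 and 3, against 112, 82.3 and 90.0 on HCT116 arrays 1, 2 and 3, also overlapping, at 0.061 over all arrays, -0.23 with E1 array 1 alone and 0.20 with E1 arrays 2 and 3 alone. Plakophilin 1, PKP1, of stratified epithelium read 29.4 to 45.8 and stood at -0.16.

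The plakins of the cornified envelope varied within a line. Periplakin, PPL, read 401, 114 and 542 on E1 arrays 1, 2 and 3, against 133, 508 and 129 on HCT116 arrays 1, 2 and 3. Both lines held low and high arrays, and the difference was 0.45 (SE 0.66, adjusted p = 0.825), at 0.83 with E1 array 1 alone and 0.25 with E1 arrays 2 and 3 alone. Envoplakin, EVPL, read 254, 11.2 and 40.8 on E1 arrays 1, 2 and 3, against 121, 123 and 97.3 on HCT116 arrays 1, 2 and 3. E1 array 1 was above and E1 arrays 2 and 3 below all HCT116 arrays, so that the difference was -0.59 (SE 0.65, adjusted p = 0.745) over all arrays, 0.98 for E1 array 1 and -1.37 (SE 0.25, adjusted p = 0.0289) with E1 arrays 2 and 3 alone.

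Claudin 7, CLDN7, a claudin of colon epithelium, read 594, 143 and 150.4 on E1 arrays 1, 2 and 3, against 955, 1215 and 489 on HCT116 arrays 1, 2 and 3. E1 array 1 lay within the HCT116 range and E1 arrays 2 and 3 below it. The means were 296 ± 258 in E1 and 886 ± 368 in HCT116 (SD, n = 3 each) and the difference was -1.67 (SE 0.57, adjusted p = 0.275). It was -0.46 with E1 array 1 alone and -2.27 (SE 0.37, adjusted p = 0.0208) with E1 arrays 2 and 3 alone.

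Claudins 3 and 4 are the receptors of the Clostridium perfringens enterotoxin, and their genes are both on chromosome 7. CLDN3 read 248, 0.784 and 2.86 on E1 arrays 1, 2 and 3, against 76.0, 164 and 55.3 on HCT116 arrays 1, 2 and 3. CLDN4 read 419, 86.6 and 93.7 on E1 arrays 1, 2 and 3, against 154, 250.2 and 147 on HCT116 arrays 1, 2 and 3. For both genes E1 array 1 was the highest of all arrays and E1 arrays 2 and 3 were the lowest. With all arrays the differences were -0.84 (SE 0.85, adjusted p = 0.715) for CLDN3 and -0.16 (SE 0.53, adjusted p = 0.938) for CLDN4. With E1 array 1 alone they were 1.19 and 1.10, neither called. With E1 arrays 2 and 3 alone CLDN3 fell, at -1.86 (SE 0.35, adjusted p = 0.0312), and CLDN4 stood at -0.79 (SE 0.23, adjusted p = 0.108). The direction in E1 thus turned with the array used.

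Claudin 15, CLDN15, a cation pore claudin of the intestine, read 57.0, 47.8 and 84.7 on E1 arrays 1, 2 and 3, against 21.2, 54.1 and 14.6 on HCT116 arrays 1, 2 and 3. HCT116 array 2 lay above E1 array 2, so that the lines overlapped, and the difference was 0.65 (SE 0.27, adjusted p = 0.333), at 0.57 with E1 array 1 alone and 0.69 with E1 arrays 2 and 3 alone. The other 11 claudins, CLDN1, CLDN5, CLDN6, CLDN8 to CLDN11, CLDN14 and CLDN16 to CLDN18, read between 3.49 and 83.2, with differences from -0.22 to 0.22 and no unadjusted p below 0.266. Of all 15 claudins 4 were positive and 11 negative.

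The tight junction scaffold ZO-1, TJP1, read 665, 828 and 966 on E1 arrays 1, 2 and 3, against 827, 855 and 771 on HCT116 arrays 1, 2 and 3. A dimmer TJP1 probe set, given further on, was lower on every E1 array. On the brightest probe set the lines overlapped with nearly equal means, the difference being -0.011 (SE 0.17, adjusted p = 0.989) and its interval -0.42 to 0.39. It stood at -0.28 with E1 array 1 alone and 0.13 with E1 arrays 2 and 3 alone. Occludin, OCLN, the tight junction membrane protein, read 77.8, 45.0 and 78.7 on E1 arrays 1, 2 and 3, against 108, 102 and 66.2 on HCT116 arrays 1, 2 and 3. E1 array 2 was lowest and the lines overlapped, at -0.33 (SE 0.22, adjusted p = 0.536) over all arrays, -0.16 with E1 array 1 alone and -0.41 with E1 arrays 2 and 3 alone. ZO-3, TJP3, read 107, 29.8 and 87.4 on E1 arrays 1, 2 and 3, against 74.3, 117 and 65.9 on HCT116 arrays 1, 2 and 3, with E1 array 2 again lowest, and stood at -0.20. The second TJP3 probe set stood at -0.81 (SE 0.52) over all arrays and at 0.31 with E1 array 1 alone.

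Connexin signal was low on every array. Connexin 31.1, GJB5, an epidermal connexin, read 11.1, 5.89 and 10.4 on E1 arrays 1, 2 and 3, against 12.3, 33.2 and 45.4 on HCT116 arrays 1, 2 and 3. All E1 arrays were below all HCT116 arrays, at -0.56 (SE 0.22, adjusted p = 0.318) and at -0.49 with E1 array 1 alone and -0.60 with E1 arrays 2 and 3 alone. The other 5 connexins, GJA1, GJA3, GJA4, GJA5 and GJB1, read 0.665 to 57.3 and ran from -0.23 to 0.021.

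Within E1, 6 of the 57 junction genes were lower by at least 1 on the log2 scale on both E1 arrays 2 and 3 than on E1 array 1: JUP, PKP3, EVPL, CLDN3, CLDN4 and CLDN7. That is 10.5%, against 4.51% of all genes, and 0 junction genes were higher by as much on both, against 0.401% of all genes. With E1 arrays 2 and 3 alone against HCT116, 5 junction genes fell, against 7.33% of all genes, and 1 rose, against 1.64%, together 10.5% of the junction genes against 8.97% of all genes. The 5 were JUP, PKP3, CLDN7, CLDN3 and EVPL, and the gene that rose, on its brightest probe set, was PKP4. With E1 array 1 alone 3 genes, CLDN3, CLDN4 and CDH11, lay outside the HCT116 range by at least 1 from its mean, against 2.78% of all genes. At an unadjusted p under 0.05 there were then 5 higher, CDH11, EVPL, CLDN4, CDH10 and DSG1, against 4.44% of all genes, and 0 lower, against 7.05%. The ratio of 3' to 5' control signal separated the same E1 arrays. A fit with the GAPDH ratio as covariate is given further on. The ratio was high on E1 arrays 2 and 3 only, so that fit rests largely on E1 array 1. The part of the ratio in these values was not tested apart from this split.

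**Figure D2:**
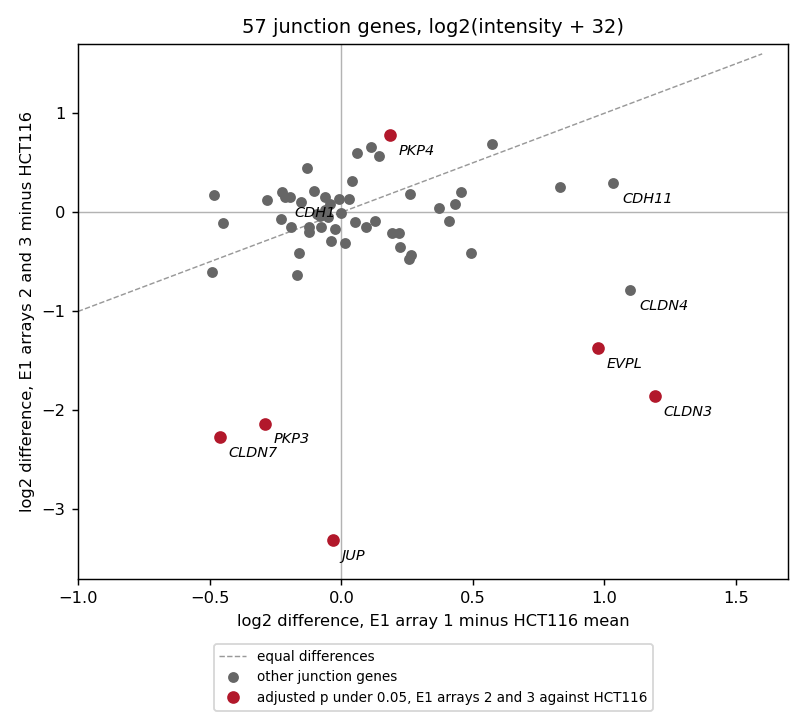
Each point is 1 of the 57 junction genes, with its log2 difference from HCT116 on E1 array 1 along the horizontal axis and on E1 arrays 2 and 3 along the vertical axis; red points have an adjusted p under 0.05 for E1 arrays 2 and 3. Most points lie near 0 on both axes, and CLDN3, CLDN4 and EVPL lie to the right of 0 and below it. JUP, PKP3 and CLDN7 are far lower on the vertical axis than on the horizontal one, where they stand at -0.034, -0.29 and -0.46.

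Probe sets of the same junction gene could differ in the sign or size of the difference. Of the 57 genes 18 had more than 1 probe set, with 26 probe sets beside those used above, and 15 of the 26 had the opposite sign. Some of these lay near 0 at low signal, such as 0.038 for PKP1 and -0.011 for CDH6. The share over all genes was not computed, so the count is not read as a trait of junction genes. In a limma fit over the 19065 single probe sets, 0 of the 83 junction probe sets were called, against 0.871% of all, with a smallest adjusted p of 0.118. At an unadjusted p under 0.05 there were 11, against 16.8% of all probe sets, with 9 lower, against 12.1%, and 2 higher, against 4.76%.

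The second CDH1 probe set read 71.8, 9.96 and 7.58 on E1 arrays 1, 2 and 3, against 85.7, 116 and 83.9 on HCT116 arrays 1, 2 and 3. E1 array 1 lay just below the HCT116 arrays and E1 arrays 2 and 3 far below, at -1.18 (SE 0.39, adjusted p = 0.224), where the probe set used above stood at 0.033. The second DSC2 probe set read 24.0, 9.76 and 4.55 on E1 arrays 1, 2 and 3, against 37.4, 83.8 and 67.0 on HCT116 arrays 1, 2 and 3, with all E1 arrays lower. Its difference was -1.07 (SE 0.25, adjusted p = 0.127) over all arrays and -0.73 with E1 array 1 alone, against 0.084 for the brighter probe set.

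The second TJP1 probe set read 165, 130.4 and 115 on E1 arrays 1, 2 and 3, against 275, 225 and 224 on HCT116 arrays 1, 2 and 3. All E1 arrays were again lower, at -0.70 (SE 0.16, adjusted p = 0.118) over all arrays and -0.47 for E1 array 1. The second PKP3 probe set read 80.4, 28.8 and 3.11 on E1 arrays 1, 2 and 3, against 171, 217 and 147 on HCT116 arrays 1, 2 and 3. It went the same way as the first, at -1.75 (SE 0.42, adjusted p = 0.135), and with E1 array 1 alone stood at -0.89. For PKP4 a second probe set stood at 0.64, close to the first, while another stood at -1.10. That probe set read 116, 48.7 and 15.1 on E1 arrays 1, 2 and 3. On the HCT116 arrays it read 129, 153 and 155, all above the E1 arrays. The remaining PKP4 probe set, at low signal, stood at -0.13. The second CLDN3 probe set read 149, 3.93 and 36.8 on E1 arrays 1, 2 and 3, against 60.8, 75.9 and 47.0 on HCT116 arrays 1, 2 and 3, which repeated the order of the arrays of the first, E1 array 1 highest and E1 arrays 2 and 3 lowest. The CTNNA1 probe sets stood at 0.48, 0.51, 0.17 and -0.16.

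**Figure D3:**
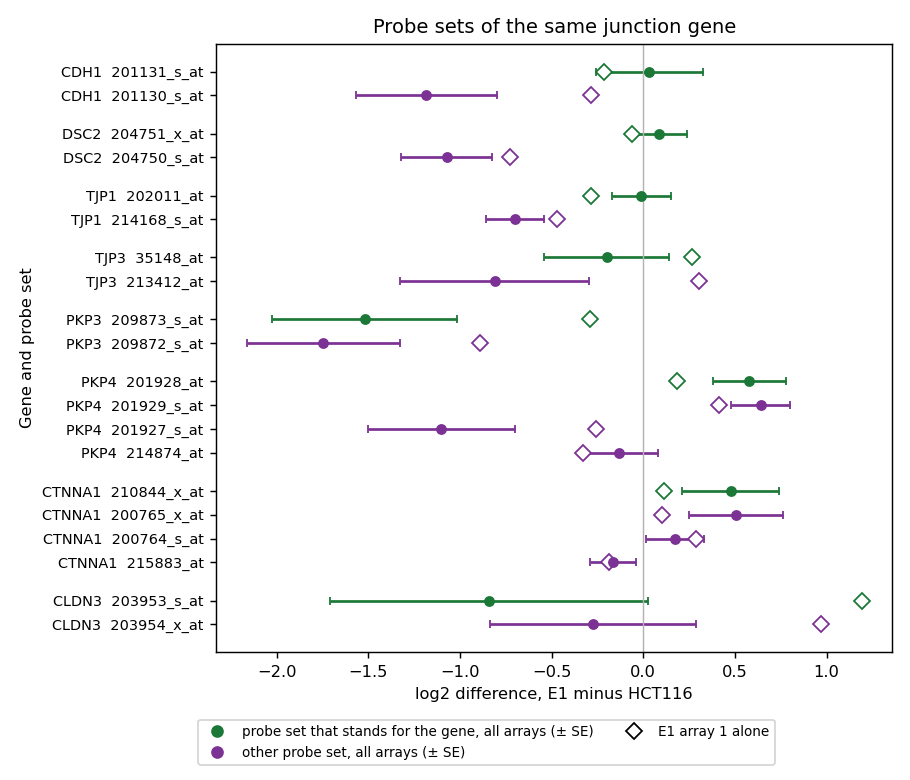
Log2 difference, E1 minus HCT116, of each probe set of 8 junction genes; circles with bars are all arrays with the SE of the limma fit, green for the probe set that stands for the gene, and open diamonds are E1 array 1 alone. Probe sets of CDH1, DSC2, TJP1 and PKP4 of the same gene lie apart, with differences of 0.033 and -1.18 for CDH1.

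Of 40 partners of these junctions outside the families above, 32 were measured and 0 were called. An unadjusted p under 0.05 was found for 2 higher genes, against 5.29% of all genes, and 2 lower ones, against 9.70%. Their median difference was -0.040, against -0.0055 over all genes. Nectin 3, NECTIN3, an immunoglobulin-type adhesion molecule that assembles with adherens junctions through afadin, read 590.5, 794 and 1208 on E1 arrays 1, 2 and 3, against 184, 119 and 247 on HCT116 arrays 1, 2 and 3. All E1 arrays were far above all HCT116 arrays, and the difference was 2.04 (SE 0.32, adjusted p = 0.0840). It was 1.58 with E1 array 1 alone and 2.28 (SE 0.31, adjusted p = 0.0118) with E1 arrays 2 and 3 alone. NECTIN3 passed in 5 of the 18 other settings, among them quantile normalization (adjusted p = 0.0426). With E1 array 1 alone the median difference of the 32 partners was -0.053, against -0.047 over all genes. With E1 arrays 2 and 3 alone 2 rose, NECTIN3 and EPCAM, against 1.64% of all genes, and 6 fell, ACTN4, NECTIN2, LLGL1, LLGL2, SYMPK and LSR, against 7.33% of all genes.

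The polarity protein PATJ, which binds tight junction scaffolds, read 17.5, 17.3 and 20.8 on E1 arrays 1, 2 and 3, against 5.34, 1.02 and 0.965 on HCT116 arrays 1, 2 and 3, higher on every E1 array at low signal, with a difference of 0.55 (SE 0.13, adjusted p = 0.163), which was 0.16 (adjusted p = 0.563) when its 2 probe sets were averaged. PARD6B, of the PAR polarity complex, read 4.18, 3.90 and 5.72 on E1 arrays 1, 2 and 3, against 23.5, 56.0 and 43.7 on HCT116 arrays 1, 2 and 3. Every E1 array was below every HCT116 array, at -0.97 (SE 0.19, adjusted p = 0.133) over all arrays and -0.99 with E1 array 1 alone. Alpha-actinin 4, ACTN4, an actin cross-linker, read 994, 288 and 182 on E1 arrays 1, 2 and 3, against 1259, 1004 and 1331 on HCT116 arrays 1, 2 and 3. E1 array 1 lay just below the HCT116 arrays and E1 arrays 2 and 3 far below, at -1.56 (SE 0.55, adjusted p = 0.284) over all arrays, -0.25 with E1 array 1 alone and -2.22 (SE 0.23, adjusted p = 0.00511) with E1 arrays 2 and 3 alone. Beta-catenin, CTNNB1, read 2013, 2829 and 3052 on E1 arrays 1, 2 and 3, against 2108, 1901 and 2340.2 on HCT116 arrays 1, 2 and 3, overlapping between the lines at 0.29 (SE 0.20, adjusted p = 0.536).

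Of 22 transcription and splicing factors known to control cadherin genes, 18 were measured and 0 were called. At an unadjusted p under 0.05 there was 1 higher gene, against 5.29% of all genes, and there were 5 lower ones, against 9.70%. The median difference was -0.20, against -0.0055 over all genes. With E1 array 1 alone the median difference of the 18 factors was -0.22, against -0.047 over all genes. With E1 arrays 2 and 3 alone 4 were called, against 8.97% of all genes: GATA6 rose, at 0.86 (adjusted p = 0.0238), and SNAI1, OVOL1 and ELF3 fell, at -1.57, -1.19 and -1.71 (adjusted p = 0.0336, 0.0211 and 0.0131). The repressor SNAI1 read 70.7, 10.4 and 12.4 on E1 arrays 1, 2 and 3, against 105, 56.0 and 145 on HCT116 arrays 1, 2 and 3. E1 array 1 lay within the HCT116 range and E1 arrays 2 and 3 below it, at -1.16 (SE 0.41, adjusted p = 0.289). ZEB1 and ZEB2, repressors of CDH1, read 26.7 to 37.0 and 0.515 to 6.96 in E1 and 14.6 to 33.2 and 0.638 to 0.969 in HCT116. Their differences were 0.19 and 0.13.

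The other lower genes at an unadjusted p under 0.05 were OVOL1, OVOL2, KLF4 and ELF3. Of further epithelial factors on the list, GRHL2, ESRP1 and KLF5 stood at -0.20, -0.44 and -0.42 and did not reach it. OVOL1 read 37.8, 16.6 and 12.0 on E1 arrays 1, 2 and 3, against 53.6, 80.1 and 89.7 on HCT116 arrays 1, 2 and 3, and its paralogue OVOL2 59.0, 55.2 and 45.5 on E1 arrays 1, 2 and 3, against 87.3, 76.4 and 88.7 on HCT116 arrays 1, 2 and 3. For both genes every E1 array was below every HCT116 array, at -0.99 (SE 0.23, adjusted p = 0.164) and -0.45 (SE 0.13, adjusted p = 0.240). The other OVOL2 probe set stood at 0.22, and the mean of its 2 probe sets at -0.12 (adjusted p = 0.735). KLF4 read 307, 349 and 749 on E1 arrays 1, 2 and 3, against 1141, 2018 and 818 on HCT116 arrays 1, 2 and 3. Its E1 arrays were all below the HCT116 arrays, at -1.45 (SE 0.43, adjusted p = 0.234), and at -1.90 with E1 array 1 alone. The epithelial factor ELF3 read 431, 117 and 114 on E1 arrays 1, 2 and 3, against 369.8, 626 and 400.2 on HCT116 arrays 1, 2 and 3, with E1 array 1 inside the HCT116 range and E1 arrays 2 and 3 below it, at -1.17 (SE 0.48, adjusted p = 0.327). The endoderm factor GATA6 read 81.4, 108 and 137 on E1 arrays 1, 2 and 3, against 52.1, 50.7 and 55.1 on HCT116 arrays 1, 2 and 3, above HCT116 on every E1 array, at 0.72 (SE 0.18, adjusted p = 0.181).

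**Figure D4:**
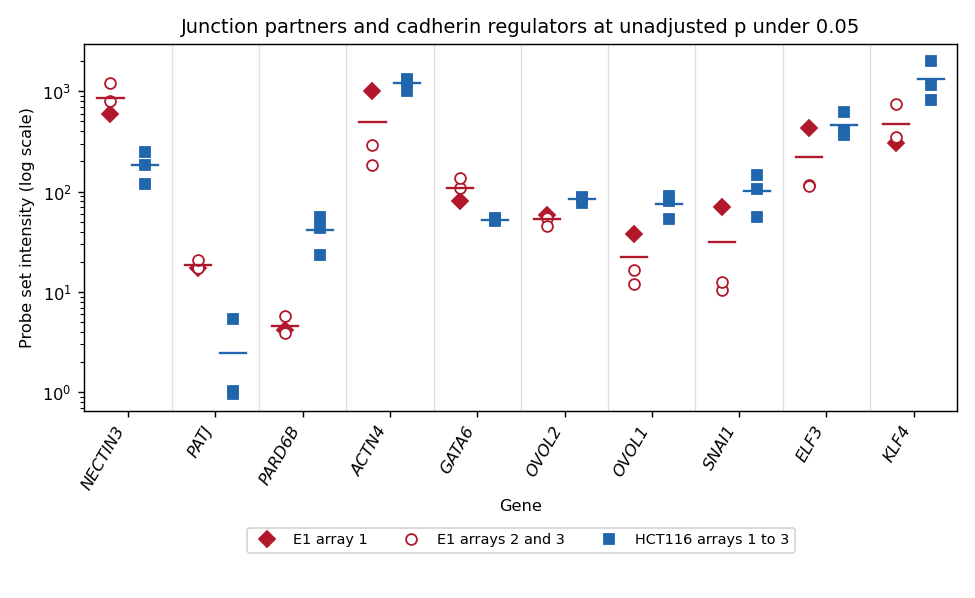
Intensity (log axis) of the junction partners and cadherin regulators with an unadjusted p under 0.05, E1 left and HCT116 right; symbols as for the junction genes. On the probe sets shown, NECTIN3, PATJ and GATA6 lie higher on all E1 arrays and PARD6B, OVOL1, OVOL2 and KLF4 lower on all. E1 array 1 alone lies near HCT116 for ACTN4, SNAI1 and ELF3.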

How the data were processed

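Gene expression was measured on 6 Affymetrix arrays, 3 of E1 and 3 of HCT116, from Trizol-extracted, biotin-labelled total RNA, per the labels' protocols. For each array the deposited table gives a linear intensity of 22283 probe sets. How these were summarized, background-corrected and scaled is not given in the sources used here, and all 6 columns belong to a labelled array. Detection calls were not used, so no gene is called absent, and the number of arrays limits the precision.

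Intensities were transformed as log2(intensity + 32) with no further normalization. After 68 control probe sets were left out, 19065 probe sets carried 1 symbol in the platform annotation, 1043 several and 2107 none listed here. The 11963 genes, each read from its brightest probe set, entered a two-sided limma comparison (version 3.58.1, R 4.3.3, eBayes without trend). On simulated data with independent arrays and equal spread in both lines, it recovered 39.2% of log2 changes of 1 and 81.5% of changes of 2. Of the calls made there 4.15% were false. The E1 arrays do not vary in that way, so these shares may not hold here. Of the 11963 genes 11954 matched RefSeq's table of GRCh38.p14 by Entrez number, with 0 symbols changed.

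Genes described array by array had an unadjusted p under 0.05, a mean above that of the median gene, an E1 array 1 value outside the HCT116 range by at least 1 on the log2 scale, or a place by name in the rule. Partners and regulators were described at an unadjusted p under 0.05. CDH2, CDH15, DSC3, PKP1, TJP3, CTNNB1, KRT8, KRT18, KRT19, KRT20, ZEB1, ZEB2, GRHL2, ESRP1, KLF5, the genes named within ranges and those called only with E1 arrays 2 and 3 fall outside this rule and were chosen after their values were seen. The members and lists were chosen with earlier results of these data known. Alternatives were offsets of 1 and 100, quantile normalization, subtraction of array medians, a dim-gene filter of 40%, other choices of probe set, a trended and robust fit, the replicate number as a block, leaving out each array, E1 array 1 alone and the GAPDH ratio as a covariate. The labels do not say whether the replicate numbers pair the lines. Deviations of same-numbered arrays from the means of their lines correlated at -0.056, -0.36 and -0.12. These values cannot decide it, since the E1 deviations mainly reflect the split of E1 array 1 from E1 arrays 2 and 3.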

Additional observations from a re-analysis of the deposited data

How the results depend on the processing

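No junction gene was called in 17 of the 18 other settings. The exception was the fit without E1 replicate 1, in which 6 were called, so that leaving out single arrays gave 0 to 6. For all genes the count of 50 became 10 with an offset of 100, 8 when _x_at and _s_at probe sets were left out, 2 with the replicate block, 2 with E1 array 1 alone and 2 with the GAPDH ratio as covariate, and 2 to 1073 when single arrays were left out. The replicate block gave 0 called junction genes. The median difference of the junction genes became 0.056 with quantile normalization and 0.104 with array medians subtracted, where the median of all genes was 0.072 and 0.144.

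Of the 20 junction genes described singly, 8 kept their sign in all settings run and 12 did not. Quantile normalization turned CLDN4 to 0.11 and TJP1 to 0.048, and subtracting array medians turned TJP1 to 0.14. Averaging the probe sets of each gene turned CDH1 to -0.58, DSC2 to -0.50, PKP2 to -0.21 and PKP4 to -0.0031. Leaving out _x_at and _s_at probe sets, CTNNA1 stood at -0.16 and OVOL2 at 0.22. With E1 array 1 alone CDH1 stood at -0.21, CLDN3 at 1.19, CLDN4 at 1.10, DSC2 at -0.063, DSG2 at -0.11, DSP at -0.13, EVPL at 0.98 and PKP2 at -0.23. With the GAPDH ratio as covariate they stood at -0.27, 1.14, 1.07, -0.083, -0.15, -0.15, 0.88 and -0.28 in the same order. Leaving out single arrays gave ranges of -0.20 to 0.25 for CDH1, -0.093 to 0.31 for CDH3, -0.79 to 0.18 for CLDN4, -0.022 to 0.18 for DSC2, -0.085 to 0.21 for DSG2, -0.18 to 0.20 for PKP2 and -0.13 to 0.13 for TJP1. The causes of these changes were not tested. The settings for partner and regulator genes were chosen after seeing the data.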
